A study of Mus musculus with 18 samples.

Results

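The genes described here serve the storage of fat in cells, and were chosen as a named list of 10 among the 38887 genes measured in mouse bone marrow-derived macrophages (BMMs). They are the nuclear receptors Pparg and Ppard, the fatty acid carriers Fabp4 and Fabp5, the lipid droplet protein Plin2, the lipase Lpl, the lipase Pnpla2 with its inhibitor Hilpda, and the acyltransferases Dgat1 and Dgat2. RNA was sequenced from BMMs of 3 genotypes, either untreated or given lipopolysaccharide (LPS, from the outer membrane of bacteria) at 100 ng/ml for 4 h, with 3 preparations per group and 18 libraries in all. The animals were adult, age-matched female C57BL/6J mice, and all groups were described as carrying the Lyz2-Cre allele, in which the Cre recombinase is read from the Lyz2 gene of myeloid cells. Mice with this allele alone were the wild type (WT). In GILZ KO mice, loxP sites around exon 6 of Tsc22d3, the gene of the glucocorticoid-induced leucine zipper (GILZ), were added, so that the exon is lost where Cre is made. In GILZ TG mice, Cre removes a stop cassette in front of a Gilz-1 cDNA that sits with EGFP in the ROSA26 locus. Bone marrow was grown for 6 days with 50 ng/ml M-CSF. The cells were then detached and reseeded, and LPS was given on the day after. Replicates are separate preparations.

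Cells keep surplus fatty acids as triglycerides in lipid droplets. Fatty acids enter from lipoproteins cut by lipoprotein lipase or through transporters, travel in the cytosol on FABP carriers, are joined to glycerol by a series of acyltransferases that ends with DGAT1 and DGAT2, and are released again by lipases that start with ATGL, the product of Pnpla2. PPAR gamma and PPAR delta bind fatty acids and, together with RXR partners, switch on many of these genes. In macrophages this system handles lipids taken up from lipoproteins and dead cells, and PPAR gamma is known for restraining inflammatory genes.

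The libraries held between 14583055 and 38557029 reads on genes. Expression is given as TPM (a share of all transcripts, scaled by transcript length and library total), which allows levels of different genes to be compared. The targeted gene Tsc22d3 was at 16.5 ± 2.08 TPM in untreated WT, 2.34 ± 0.46 in GILZ KO and 155.9 ± 3.93 in GILZ TG (SD, n = 3 each). Lyz2, the Cre locus, was at 12840 TPM on average in untreated WT and at 33.6 and 33.0 in GILZ KO and GILZ TG, so that WT differed from both other genotypes at this locus. The number of Lyz2-Cre copies per group was not given in the sources used here, and in comparisons with WT a difference at the Cre locus and the GILZ genotype cannot be told apart. The summed level of 6 macrophage markers lay between 2928 and 3582 TPM in all libraries. The 6 adipocyte markers summed to at most 0.25 TPM in any library, with Lep and Cidec at 0 in all 18, and 5 B cell markers to at most 0.74 TPM. The 5 endothelial markers lay between 4.91 and 13.1 TPM. Below, a numbered GILZ TG preparation means the untreated and LPS libraries with that replicate number. The labels do not say whether such libraries are paired. Both libraries of GILZ TG preparations 1 and 2 stood apart: their 5 stromal fibroblast markers summed to between 80.0 and 116 TPM, against 4.93 to 21.6 TPM in the other 14 libraries. Their 5 neutrophil lineage markers summed to between 95.2 and 263 TPM, against 10.5 to 40.6 TPM. For calls between genotypes, and for Dgat2 and Hilpda in the response of GILZ TG to LPS, the log2 values without them are given beside the result. This setting leaves 1 GILZ TG library per treatment, so only the size of the difference is given. Leaving out preparation 3 instead keeps only the GILZ TG libraries with the higher markers. As these are bulk samples, fewer cells that express a gene and less RNA of it per cell cannot be told apart.

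In untreated WT BMMs the 10 genes covered a wide range of levels, and no 2 neighbours in the order overlapped between their libraries. Lpl was the highest at 3551 ± 559 TPM, followed by Plin2 at 2273 ± 175 TPM (SD, n = 3 each). Fabp5 was at 154 ± 7.89 TPM, and below it Hilpda was at 58.7 ± 3.91, Pnpla2 at 48.7 ± 2.62, Pparg at 36.6 ± 2.85 and Fabp4 at 26.6 ± 1.65 TPM. Dgat1 was at 18.3 ± 1.00 TPM, Ppard at 7.72 ± 0.90 TPM and Dgat2 at 1.1 ± 0.29 TPM. The droplet coat protein and the lipoprotein lipase thus stood far above the receptors, and the sum of the 10 genes was 0.618% of all transcripts in untreated WT. After LPS this sum was 0.495% in WT, 0.499% in GILZ KO and 0.486% in GILZ TG. In WT after LPS the order was the same, except that Fabp4 stood above Hilpda and that Pparg stood below Dgat1 and Ppard. Between 20 and 70 reads per library were assigned to Dgat2, the gene with the lowest depth, so that its values are the least precise, while Lpl had at least 88721. Reads were shared with other genes for Fabp5 in 17 libraries and for Plin2 in 12, and the levels of both genes are uncertain to that extent. Pparg overlaps the antisense gene Gm44079. The library kit kept the strand, but whether the counting used it was not given in the sources used here.

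**Figure D1:**
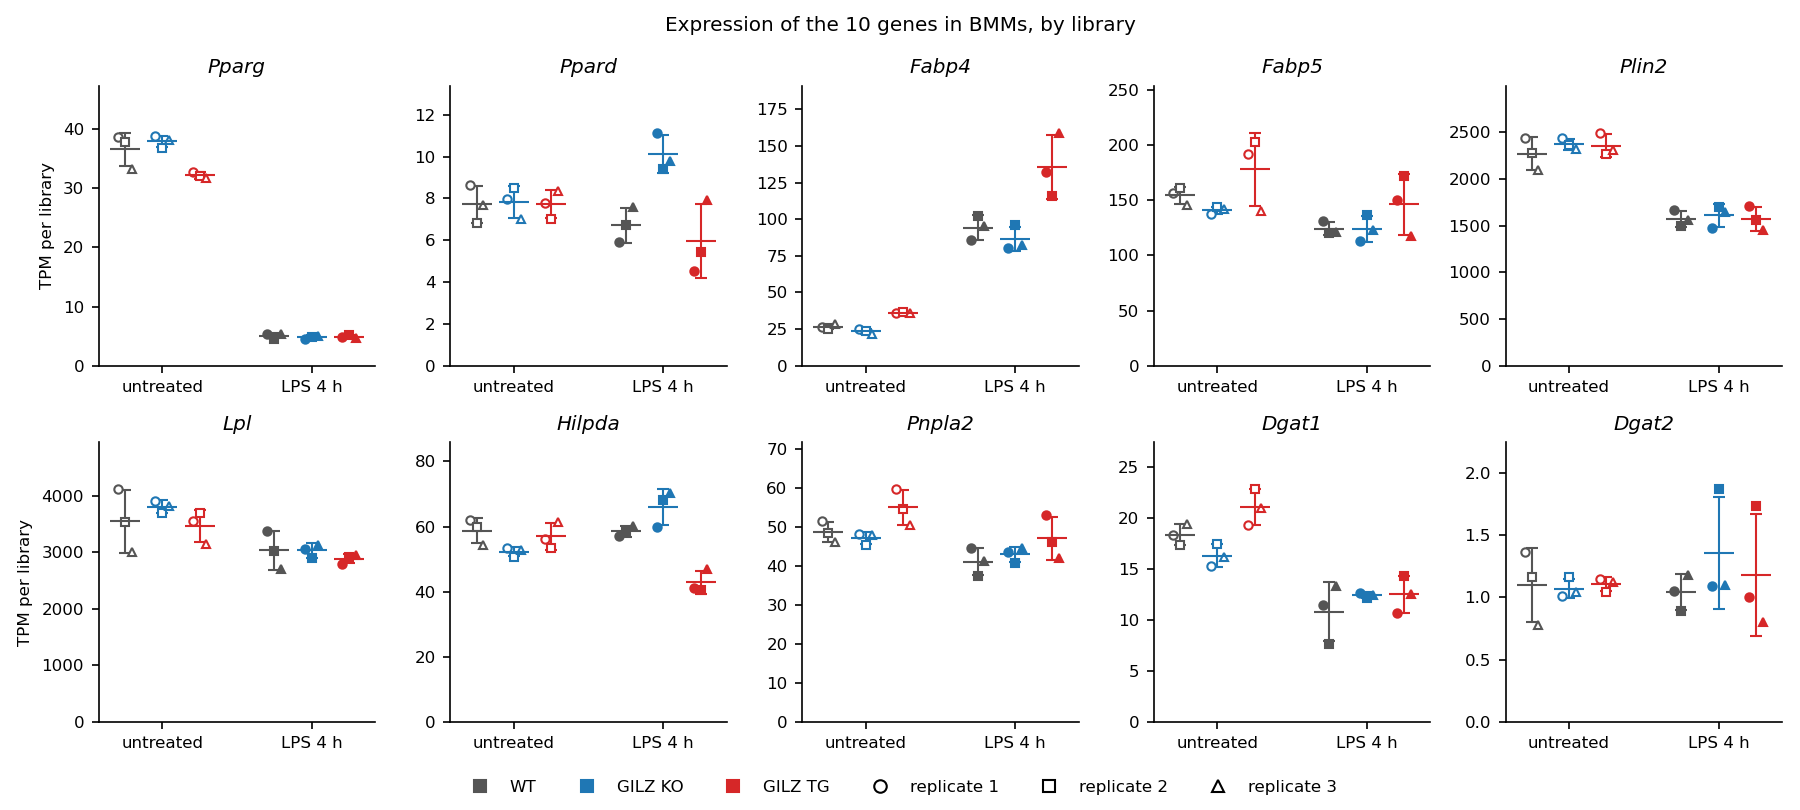
TPM of each of the 10 genes in all 18 libraries (y axis, linear, from 0), without treatment (open symbols) and after 4 h of LPS (filled symbols), with the mean and SD of the 3 replicates of a group. Pparg falls from between 31.7 and 38.8 TPM to between 4.54 and 5.34 TPM in every genotype, Fabp4 rises from between 21.5 and 36.4 to between 80.6 and 159 TPM, and in the LPS groups Ppard and Hilpda are higher in GILZ KO than in GILZ TG.

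Genes were picked here by their response to LPS with TMM scaling, which is explained below. Among those that passed this test in all 3 genotypes, RefSeq promoters of the GRCm38.p6 assembly were at hand for 4. For each gene 1 promoter, chosen because it holds a match, is shown. The motifs are those for the factors that this pathway and LPS signalling are known for. The 250 bases before the start site were searched on both strands for the PPAR core motif AGGTCA, the hypoxia response core ACGTG, the TATA box TATAAA and the kappa B motif, and matches are printed in capitals in the direction of the gene.
Pparg, chr6:115362099-115362348, plus strand: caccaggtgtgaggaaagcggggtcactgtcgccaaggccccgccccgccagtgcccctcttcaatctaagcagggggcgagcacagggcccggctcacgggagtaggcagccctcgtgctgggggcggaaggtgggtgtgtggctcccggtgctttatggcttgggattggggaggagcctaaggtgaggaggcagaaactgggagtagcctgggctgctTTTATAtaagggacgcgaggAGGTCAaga
Ppard, chr17:28232504-28232753, plus strand: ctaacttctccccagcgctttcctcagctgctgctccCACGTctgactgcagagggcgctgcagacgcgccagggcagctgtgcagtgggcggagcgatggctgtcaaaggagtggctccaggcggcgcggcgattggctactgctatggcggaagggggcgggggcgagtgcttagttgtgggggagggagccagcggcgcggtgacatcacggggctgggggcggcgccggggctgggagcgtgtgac
Hilpda, chr6:29272376-29272625, plus strand: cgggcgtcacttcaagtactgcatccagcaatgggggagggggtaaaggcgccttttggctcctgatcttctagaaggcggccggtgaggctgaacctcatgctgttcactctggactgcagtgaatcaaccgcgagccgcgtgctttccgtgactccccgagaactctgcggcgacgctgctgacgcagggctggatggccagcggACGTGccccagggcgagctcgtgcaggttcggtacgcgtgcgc
Pnpla2, chr7:141454938-141455187, plus strand: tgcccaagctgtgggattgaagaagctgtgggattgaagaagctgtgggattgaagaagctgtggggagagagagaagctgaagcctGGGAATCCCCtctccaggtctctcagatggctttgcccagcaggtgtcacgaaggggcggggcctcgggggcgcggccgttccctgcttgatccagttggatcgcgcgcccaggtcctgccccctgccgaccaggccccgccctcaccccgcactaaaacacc
The Pparg promoter held the PPAR core and, on the other strand, a TATA box. Hilpda and Ppard each held the hypoxia core, and the match in Pnpla2 is to the kappa B motif, which matches on both strands at the same bases. The table has 3 start sites for Pparg and 2 for Hilpda. A second Pparg promoter also held the PPAR core, while the third and the other Hilpda promoter held none of the 4 motifs. The promoter of Plin2, which did not pass the test, held 1 PPAR core. Among all 32851 promoters of the table, 14% held the PPAR core, 16.6% the hypoxia core, 12.4% the TATA box and 3.9% the kappa B motif. A match is a description of the letters only.

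The response to LPS was compared within each genotype. LPS moved transcripts throughout the cell: 6 genes induced by LPS (Tnf, Il1b, Il6, Acod1, Cxcl10 and Nos2) went from 0.0292% to 2.71% of all transcripts in WT. Fold changes therefore depended on the reference. With edgeR's TMM scaling, which sets each gene against the typical gene, the median log2 fold change of all 13169 genes tested was -0.02 in each genotype. With the library total as the only scaling it was -0.70 in WT, -0.66 in GILZ KO and -0.69 in GILZ TG, and TPM follows the total as well. Both are given below, the first as a change against the typical gene and the second as a change of the share of reads. All adjusted p-values are from edgeR's quasi-likelihood test with Benjamini-Hochberg adjustment over all genes, with a threshold of 0.05.

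Against the typical gene, 6 of the 10 genes rose and 1 fell in WT after LPS, where 33.5% of all genes rose and 35.1% fell (68.6% in either direction). In GILZ KO 7 rose and 1 fell (33.2% and 35.4% of all genes, 68.5% together), and in GILZ TG 7 rose and 1 fell (33.6% and 35.1%, 68.7% together). By the share of reads the same libraries gave 1 higher and 6 lower in WT (15.9% and 68.3% of all genes, 84.2% together), 3 higher and 4 lower in GILZ KO (15.5% and 67.2%, 82.7% together), and 1 higher and 8 lower in GILZ TG (15.5% and 68.3%, 83.8% together). Pparg fell and Fabp4 rose on both scales in all genotypes. For 5 others that rose against the typical gene, Ppard, Fabp5, Lpl, Hilpda and Pnpla2, the direction turned between the scales in at least 1 genotype. The median of the 10 genes was 0.40 in WT, 0.47 in GILZ KO and 0.35 in GILZ TG against the typical gene.

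**Figure D2:**
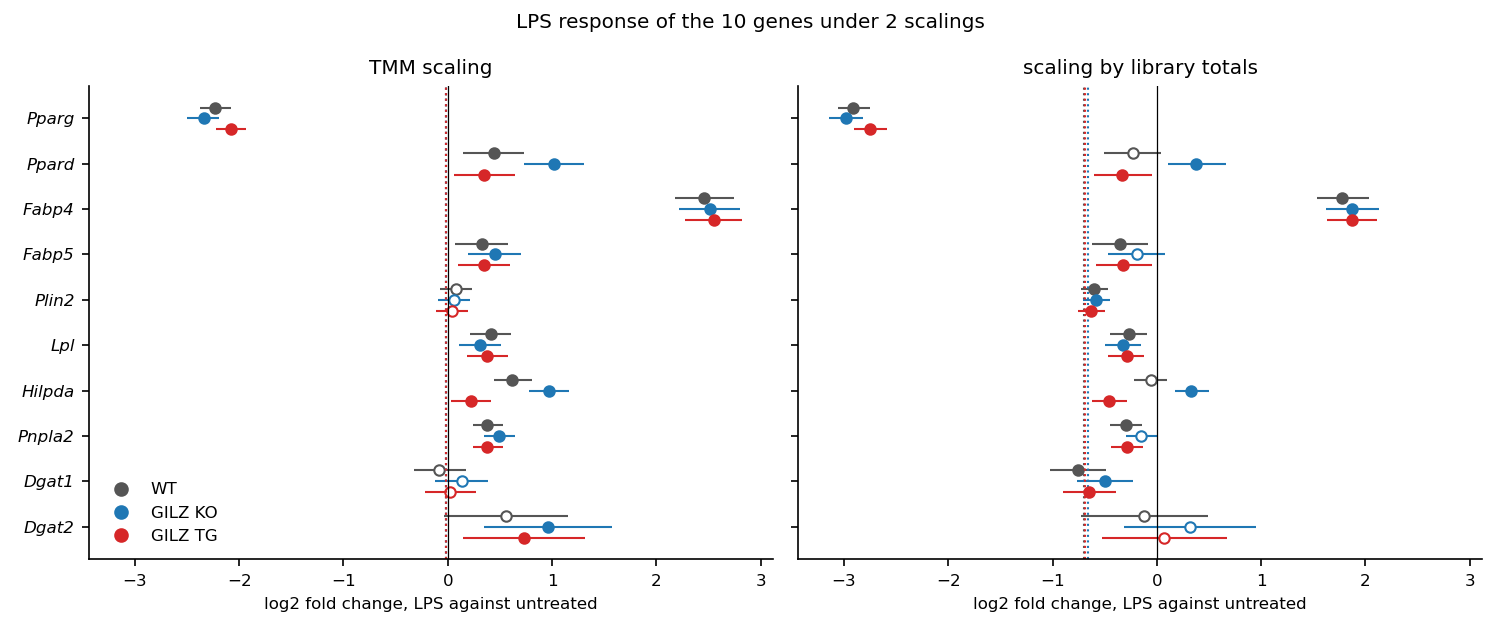
Log2 fold change (x axis) of LPS against untreated for the 10 genes (y axis) in WT, GILZ KO and GILZ TG, with 95% confidence intervals, from edgeR with TMM scaling (left) and with library totals as the only scaling (right). Filled points had an adjusted p-value under 0.05, and dotted lines mark the median of all genes. Pparg lies below 0 and Fabp4 above 0 in both panels, while each of the other genes changes sides in at least 1 genotype.

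Pparg (ENSMUSG00000000440, chromosome 6 of GRCm38 from 115360951 to 115490399, plus strand) encodes the receptor that drives the differentiation of fat cells. It was at 38.6, 37.8 and 33.3 TPM in untreated WT and at 5.34, 4.56 and 5.31 TPM after LPS. In GILZ KO it went from 38.8, 36.8 and 38.2 TPM to 4.54, 4.92 and 5.09 TPM, and in GILZ TG from 32.8, 32.1 and 31.7 TPM to 4.93, 5.14 and 4.65 TPM. Every LPS library lay far below every untreated library, with an overlap of all genotypes after LPS. The log2 fold change against the typical gene was -2.23 in WT (standard error 0.07, adjusted p = 1.72e-14 from edgeR), -2.34 in GILZ KO (standard error 0.07) and -2.08 in GILZ TG (standard error 0.07). By the share of reads it was -2.91, -2.98 and -2.75. Over the 16 fits made for WT, the value stayed between -2.91 and -2.18, with adjusted p at most 1.34e-07.

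Ppard (ENSMUSG00000002250, chromosome 17 from 28232700 to 28301474, plus strand) encodes PPAR delta, the related receptor that is found in most tissues and is known for driving the oxidation of fatty acids. Its values were 8.63, 6.84 and 7.69 TPM in untreated WT and 5.90, 6.71 and 7.57 TPM after LPS, with overlap between the groups. In GILZ KO they were 7.97, 8.51 and 7.0 TPM and then 11.2, 9.41 and 9.78 TPM, and all LPS libraries lay above all untreated ones. In GILZ TG they were 7.80, 7.02 and 8.35 TPM and then 4.55, 5.43 and 7.94 TPM. On the TPM scale the LPS libraries of GILZ KO thus stood apart from the untreated ones, and those of WT and GILZ TG did not. Against the typical gene it rose by 0.44 in WT (adjusted p = 0.00836), 1.02 in GILZ KO (adjusted p = 4.34e-06) and 0.35 in GILZ TG (adjusted p = 0.0325, from edgeR). The call in GILZ TG did not hold in 3 of 6 fits without 1 library (adjusted p up to 0.257) and was 0.25 (adjusted p = 0.0525) without both libraries of preparation 3, and that in WT in 1 of 6 (up to 0.0543). By the share of reads it rose by 0.38 in GILZ KO (adjusted p = 0.0123), fell by 0.33 in GILZ TG (adjusted p = 0.0302) and was -0.23 in WT (adjusted p = 0.107). The ratio of Pparg to Ppard within a library, which no scaling changes, was 4.78 ± 0.65 in untreated WT, 4.88 ± 0.56 in GILZ KO and, with n = 3 each and the SD as error, 4.19 ± 0.39 in GILZ TG. LPS brought it to 0.76 ± 0.12 in WT, 0.48 ± 0.07 in GILZ KO and 0.87 ± 0.26 in GILZ TG. Pparg was the more abundant receptor transcript in all 9 untreated libraries, and the ratio was below 1 after LPS in all but GILZ TG replicate 1, with 1.08.

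Fabp4 (ENSMUSG00000062515, chromosome 3 from 10204088 to 10208576, minus strand), a classical target of PPAR gamma in fat cells, encodes a carrier of fatty acids in the cytosol. It moved in the direction opposite to Pparg. In WT it went from 26.5, 25.0 and 28.3 TPM to 85.5, 102 and 95.1 TPM, in GILZ KO from 25.1, 23.7 and 21.5 TPM to 80.6, 95.9 and 82.7 TPM, and in GILZ TG from 35.7, 36.4 and 35.9 TPM to 132, 116 and 159 TPM. All 9 LPS libraries lay above all 9 untreated ones. The log2 fold change against the typical gene was 2.46 in WT (standard error 0.13, adjusted p = 2.53e-11 from edgeR), 2.51 in GILZ KO (standard error 0.14) and 2.55 in GILZ TG (standard error 0.13), and by the share of reads 1.78, 1.87 and 1.87. The ratio of Fabp4 to Pparg within a library went from 0.73 ± 0.10 to 18.8 ± 3.31 in WT (SD, n = 3).

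Fabp5 (ENSMUSG00000027533, chromosome 3 from 10012548 to 10016607, plus strand) encodes a related carrier and lies 187480 bases from Fabp4. Its values in WT were 157, 161 and 145.5 TPM without treatment and 131, 120.5 and 121 TPM after LPS, and in GILZ KO 137, 143 and 142 TPM and then 113, 137 and 123 TPM. In GILZ TG they were 191, 203 and 140.5 TPM and then 149.8, 172 and 117 TPM. The LPS libraries lay below the untreated ones in WT and GILZ KO and overlapped in GILZ TG. Replicates 1 and 2 of GILZ TG, the libraries with the higher stromal and neutrophil markers, were above replicate 3 in both treatments, and the part of those markers in this was not tested. Fabp5 rose against the typical gene by 0.33 in WT (adjusted p = 0.0223), 0.45 in GILZ KO (adjusted p = 0.00379) and 0.35 in GILZ TG (adjusted p = 0.0151, from edgeR), whereas its share of reads fell by 0.35 in WT, fell by 0.32 in GILZ TG and was -0.19 in GILZ KO (adjusted p = 0.171). In WT the first of these calls did not hold without 1 library in 4 of 6 cases (adjusted p up to 0.0975), and in GILZ TG in 2 of 6 (up to 0.122). The ratio of Fabp4 to Fabp5 within a library went from 0.17 ± 0.02 to 0.76 ± 0.10 in WT, from 0.17 ± 0.02 to 0.70 ± 0.02 in GILZ KO and from 0.21 ± 0.04 to 0.97 ± 0.35 in GILZ TG (SD, n = 3 each), without overlap between treatments. In each genotype Fabp4 thus gained on Fabp5 after LPS.

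Plin2 (ENSMUSG00000028494, chromosome 4 from 86648386 to 86670060, minus strand), the main coat protein of droplets in macrophages, followed the typical gene. It was at 2442, 2283 and 2092 TPM in untreated WT and at 1664, 1499.8 and 1557 TPM after LPS, with no overlap. GILZ KO and GILZ TG gave a like pattern, with 2266 to 2497 TPM in the untreated libraries and 1453 to 1707 TPM after LPS. The fold change against the typical gene was 0.08 in WT (95% confidence interval -0.07 to 0.23, adjusted p = 0.314), 0.06 in GILZ KO and 0.04 in GILZ TG, and no test was passed. By the share of reads Plin2 fell by 0.60, 0.58 and 0.63 in the same order (adjusted p = 8.23e-08 in WT from edgeR). Dgat1 (ENSMUSG00000022555, chromosome 15 from 76502015 to 76511953, minus strand), which adds the last fatty acid to a triglyceride, did not pass either. Its libraries were at 15.2 to 22.8 TPM without treatment and at 7.64 to 14.3 TPM after LPS, which gave -0.08 in WT, 0.14 in GILZ KO and 0.02 in GILZ TG against the typical gene, none past the threshold, and -0.76, -0.50 and -0.65 by the share of reads. Without WT LPS replicate 3 the value in WT was -0.26 and passed (adjusted p = 0.0312).

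Dgat2 (ENSMUSG00000030747, chromosome 7 from 99153658 to 99182719, minus strand) catalyses the same step and is known as the major form in liver and fat. It was at 0.78 to 1.36 TPM in untreated libraries and at 0.80 to 1.87 TPM after LPS, and the groups overlapped. Against the typical gene it rose by 0.96 in GILZ KO (adjusted p = 0.00734) and 0.73 in GILZ TG (adjusted p = 0.027), with 0.56 in WT (adjusted p = 0.0888, from edgeR), and by the share of reads no change passed the test. The call in GILZ KO was lost without GILZ KO LPS replicate 2, the highest library (0.65, adjusted p = 0.0643), and that in GILZ TG in 4 of 6 fits without 1 library, with the lowest value without GILZ TG LPS replicate 2 (0.39, adjusted p = 0.24). Without both libraries of GILZ TG preparations 1 and 2 the value in GILZ TG was 0.18. Dgat1 remained above Dgat2 in all 18 libraries, with a ratio of 17.8 ± 6.16 in untreated WT and 10.3 ± 1.46 after LPS (SD, n = 3 each).

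Lpl (ENSMUSG00000015568, chromosome 8 from 68880491 to 68907448, plus strand) encodes lipoprotein lipase, which macrophages secrete and which frees fatty acids from lipoproteins. In WT it was at 4122, 3527 and 3005 TPM without treatment and at 3384, 3017 and 2697 TPM after LPS, and the groups overlapped. In GILZ KO it went from 3910, 3694 and 3826 TPM to 3063, 2896 and 3138 TPM, and in GILZ TG from 3551, 3694 and 3151 TPM to 2791, 2924 and 2951 TPM, without overlap. Lpl rose against the typical gene by 0.41 in WT (adjusted p = 0.00096), 0.31 in GILZ KO (adjusted p = 0.00726) and 0.38 in GILZ TG (edgeR adjusted p = 0.00172). Its share of reads fell by 0.27, 0.32 and 0.29. It remained the highest of the 10 genes in each of the 18 libraries.

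Pnpla2 (ENSMUSG00000025509, chromosome 7 from 141455198 to 141460743, plus strand) encodes ATGL, which removes the first fatty acid from a stored triglyceride. It was at 51.4, 48.5 and 46.2 TPM in untreated WT and at 44.5, 37.5 and 41.2 TPM after LPS, without overlap. In GILZ KO it was at 48.3, 45.4 and 48.0 TPM and then at 43.4, 40.7 and 44.6 TPM, and in GILZ TG at 59.8, 54.6 and 50.6 TPM and then at 53.1, 46.1 and 42.1 TPM. The LPS libraries of GILZ KO lay below its untreated ones, and those of GILZ TG overlapped. Pnpla2 rose against the typical gene by 0.38 in WT (adjusted p = 8.12e-05), 0.49 in GILZ KO (adjusted p = 6.46e-06) and 0.38 in GILZ TG (adjusted p = 6.92e-05, from edgeR), while its share of reads fell by 0.30 in WT, fell by 0.29 in GILZ TG and was -0.15 in GILZ KO (adjusted p = 0.0773).

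Hilpda (ENSMUSG00000043421, chromosome 6 from 29272488 to 29275446, plus strand) encodes a small droplet protein that inhibits ATGL and is induced by low oxygen and by fatty acids. In WT it was at 62.0, 59.9 and 54.4 TPM without treatment and at 57.0, 58.5 and 60.3 TPM after LPS, a level that overlapped. In GILZ KO it went from 53.3, 50.8 and 52.9 TPM to 59.9, 68.1 and 70.3 TPM, and in GILZ TG from 56.2, 53.3 and 61.4 TPM to 41.0, 40.5 and 47.0 TPM. The LPS libraries of GILZ KO lay above its untreated ones and those of GILZ TG below. Against the typical gene Hilpda rose by 0.62 in WT (adjusted p = 6.51e-06), 0.97 in GILZ KO (adjusted p = 3.8e-08) and 0.22 in GILZ TG (adjusted p = 0.0359, from edgeR). The last of these did not hold in 3 of the 6 fits without 1 library (adjusted p up to 0.215), nor without GILZ TG preparation 3 (0.19, adjusted p = 0.0714). Without GILZ TG preparations 1 and 2 it was 0.30. By the share of reads Hilpda rose by 0.33 in GILZ KO, fell by 0.46 in GILZ TG and was -0.06 in WT (adjusted p = 0.493). The ratio of Hilpda to Pnpla2 within a library was 1.21 ± 0.03 in untreated WT and 1.44 ± 0.14 after LPS, 1.11 ± 0.01 and 1.54 ± 0.15 in GILZ KO, and 1.04 ± 0.15 and 0.92 ± 0.17 in GILZ TG (SD, n = 3 each).

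Other genes of the pathway were grouped in 6 lists with 56 genes, of which 43 had enough reads to be tested in the LPS comparisons. Of all genes in WT, 33.5% rose and 35.1% fell against the typical gene. By the share of reads 15.9% of all genes rose and 68.3% fell. Among the partners and coregulators of the PPARs, 3 rose and 4 fell against the typical gene in WT, of 8 tested, with a median of -0.18. Rxra, the partner with which PPAR gamma binds DNA, went from 7.42 to 1.15 TPM and fell by 2.24, close to Pparg itself. Rxrb, a related partner, fell by 0.50 and the coactivator Ncoa2 by 0.49. The coactivators Med1 and Ncoa1 rose by 0.72 and 0.64, and neither passed the test by the share of reads. Rxra was lower on both scales and in each genotype, with -2.32 in GILZ KO and -2.08 in GILZ TG.

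Among 7 other PPAR target genes tested, 3 rose and 2 fell in WT, with values between -2.38 and 1.02. Cpt1a, which lets fatty acids into mitochondria, rose by 1.02 and also by the share of reads (0.34). Cd36, a fatty acid transporter and scavenger receptor, rose by 0.20 and the carnitine carrier Slc25a20 by 0.16, and both were lower by the share of reads, at -0.48 and -0.52. In the list of uptake and activation, 4 of 8 genes rose and 3 fell, with values between -1.91 and 3.23. Of those that fell, only genes that reached 5 TPM are named. Fabp3, the carrier of heart and muscle, went from 5.99 to 36.4 TPM and rose by 3.23, the largest rise among the list genes named here, and Acsl1, which activates fatty acids with coenzyme A, went from 71.3 to 239.9 TPM and rose by 2.36. Both rose by the share of reads too, by 2.55 and 1.68. Acsl5 and Acsl4 rose by 0.71 and 0.55 against the typical gene but did not pass by the share of reads, while Acsl3 fell by 1.27 and the transporter Slc27a1 by 0.62. Fabp4 therefore rose together with another carrier and with an activating enzyme, and in the same libraries Fabp5 was lower by share.

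Of 8 further enzymes of triglyceride synthesis tested, 2 rose and 3 fell in WT, with values between -3.3 and 0.92. Of those that fell, only Gpam reached 5 TPM, and the others are not named. Gpam, which starts the synthesis in mitochondria, fell by 0.93, the phosphatidate phosphatase Lpin2 rose by 0.92 and Agpat1 by 0.12. By the share of reads none of the 8 was higher and 7 were lower, where 68.3% of all genes were lower. Their median by the share of reads was -0.73, beside -0.70 for all genes. Only 5 of 13 further droplet proteins and lipases had enough reads, and of these 1 rose and 1 fell. Lipe, hormone-sensitive lipase, went from 11.5 to 25.4 TPM and rose by 1.76, and Fitm2, which helps droplets to form, fell by 1.12. Among 7 oxidation enzymes of mitochondria 3 rose and 1 fell: Acadl rose by 0.57, Hadha by 0.37 and Hadhb by 0.18, and Acadm fell by 0.31. By the share of reads 6 of the 7 were lower and none higher, with a median of -0.67 beside -0.70 for all genes. The medians of the 6 lists lay between -0.18 and 0.22 in WT, beside -0.02 for all genes and 0.40 for the 10 genes themselves.

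**Figure D3:**
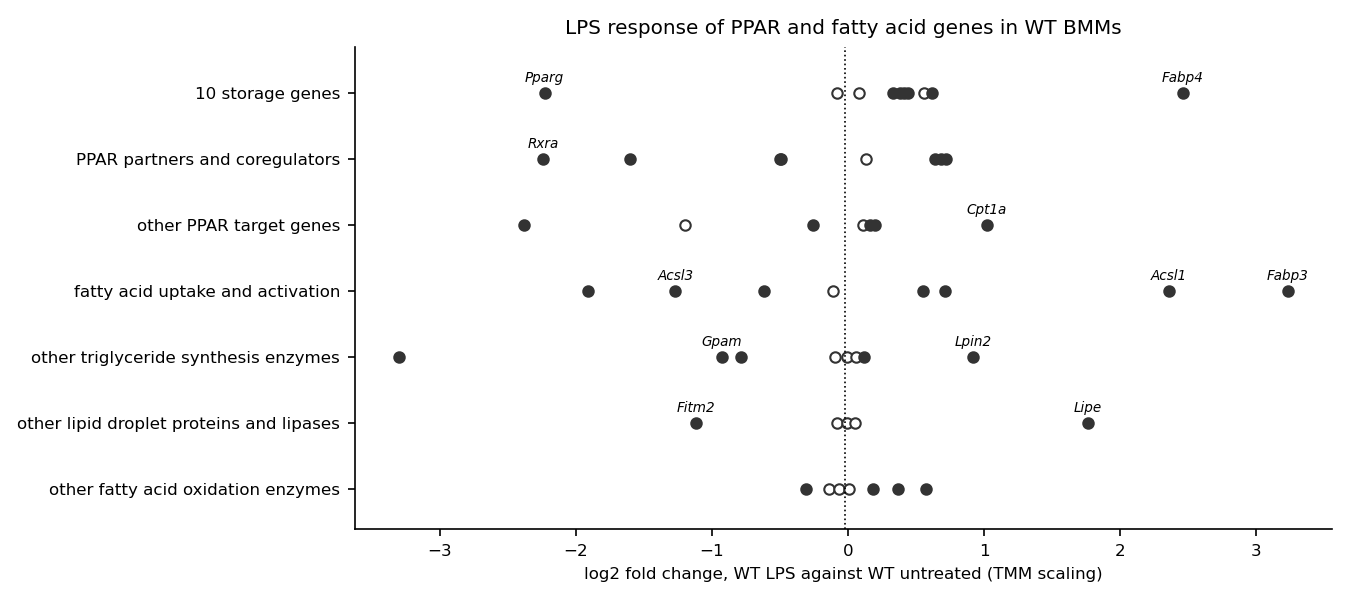
Log2 fold change against the typical gene (x axis, edgeR with TMM scaling) of LPS against untreated in WT, by list (y axis), for the 10 genes and the tested genes of the 6 pathway lists, 1 point per gene. Filled points had an adjusted p-value under 0.05, and genes lie on both sides of 0 in each list. The dotted line marks the median of all genes, and with library totals the medians of the lists were all below 0.

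The genotypes were compared without treatment and after LPS, to ask whether loss or excess of GILZ moved the storage genes. As Tsc22d3 was low in WT after LPS, GILZ KO against WT is a smaller contrast in GILZ transcript there than without treatment. The comparisons share libraries, since each genotype enters 2 of them. For 3 against 3 libraries an exact permutation test cannot go below p = 0.1, so that single genes were judged by edgeR alone. In untreated BMMs, GILZ KO and WT differed in none of the 10 genes, where 0.0951% of all genes passed. At an unadjusted p under 0.05 there were 2, beside 1211 of all 12621 genes tested, and DESeq2 and limma called 0 each. Fabp5 and Hilpda lay below WT in all 3 GILZ KO libraries, while 17.2% of all genes did not overlap between these groups. The differences were -0.18 for Fabp5 (95% confidence interval -0.42 to 0.06, adjusted p = 0.615) and -0.21 for Hilpda (-0.35 to -0.07, adjusted p = 0.397). Pparg differed by 0.01 (-0.10 to 0.13), Plin2 by -0.07 (-0.20 to 0.05) and Lpl by 0.01 (-0.16 to 0.17).

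GILZ TG against untreated WT also gave 0 of 10 by edgeR, with 0.642% of all genes called, and 0 by DESeq2 and by limma. At an unadjusted p under 0.05 there were 3, beside 1780 of all 12621 genes tested. Fabp4 was above WT in all 3 libraries, with 35.7, 36.4 and 35.9 TPM against 26.5, 25.0 and 28.3 TPM, and the difference of 0.42 (95% confidence interval 0.21 to 0.64) had an adjusted p of 0.0981. Pparg was below WT in all 3 libraries, with a difference of -0.19 (-0.31 to -0.08, adjusted p = 0.145). These 2 genes were the ones that did not overlap, beside 14.9% of all genes. Without both libraries of GILZ TG preparation 3, Fabp5 (0.32, adjusted p = 0.00843) and Pnpla2 (0.25, adjusted p = 0.033) passed. This setting keeps only the GILZ TG libraries with the higher stromal and neutrophil markers, whose part in this was not tested. In the replicate left out, Fabp5 was at 140.5 TPM, below the 145.5 to 161 TPM of WT. Its Pnpla2 was at 50.6 TPM, within the 46.2 to 51.4 TPM of WT.

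GILZ KO against GILZ TG, the extremes of GILZ expression, gave 2 of 10 without treatment, with 4.94% of all genes called. Fabp4 was lower in GILZ KO by a log2 difference of -0.65 (standard error 0.10, adjusted p = 0.011 from edgeR), with 25.1, 23.7 and 21.5 TPM against 35.7, 36.4 and 35.9 TPM. Pnpla2 was lower by -0.30 (standard error 0.06, adjusted p = 0.0256), with 48.3, 45.4 and 48.0 TPM against 59.8, 54.6 and 50.6 TPM. In both genes every GILZ KO library lay below every GILZ TG library. Pparg at 0.21 (adjusted p = 0.0519), Dgat1 at -0.32 (adjusted p = 0.0593) and Hilpda at -0.15 (adjusted p = 0.193) did not overlap either but missed the threshold, beside 28.7% of all genes without overlap. The call of Fabp4 held in 5 of 6 fits without 1 library and that of Pnpla2 in 1 of 6. Without preparation 3 Fabp5 passed (-0.50, adjusted p = 0.000509). The GILZ TG replicate left out there, at 140.5 TPM, lay within the 137 to 143 TPM of GILZ KO. Without both libraries of GILZ TG preparations 1 and 2, those with the higher stromal and neutrophil markers, Fabp4 was at -0.67 and Pnpla2 at -0.19. The part of these markers in the differences was not tested.

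**Figure D4:**
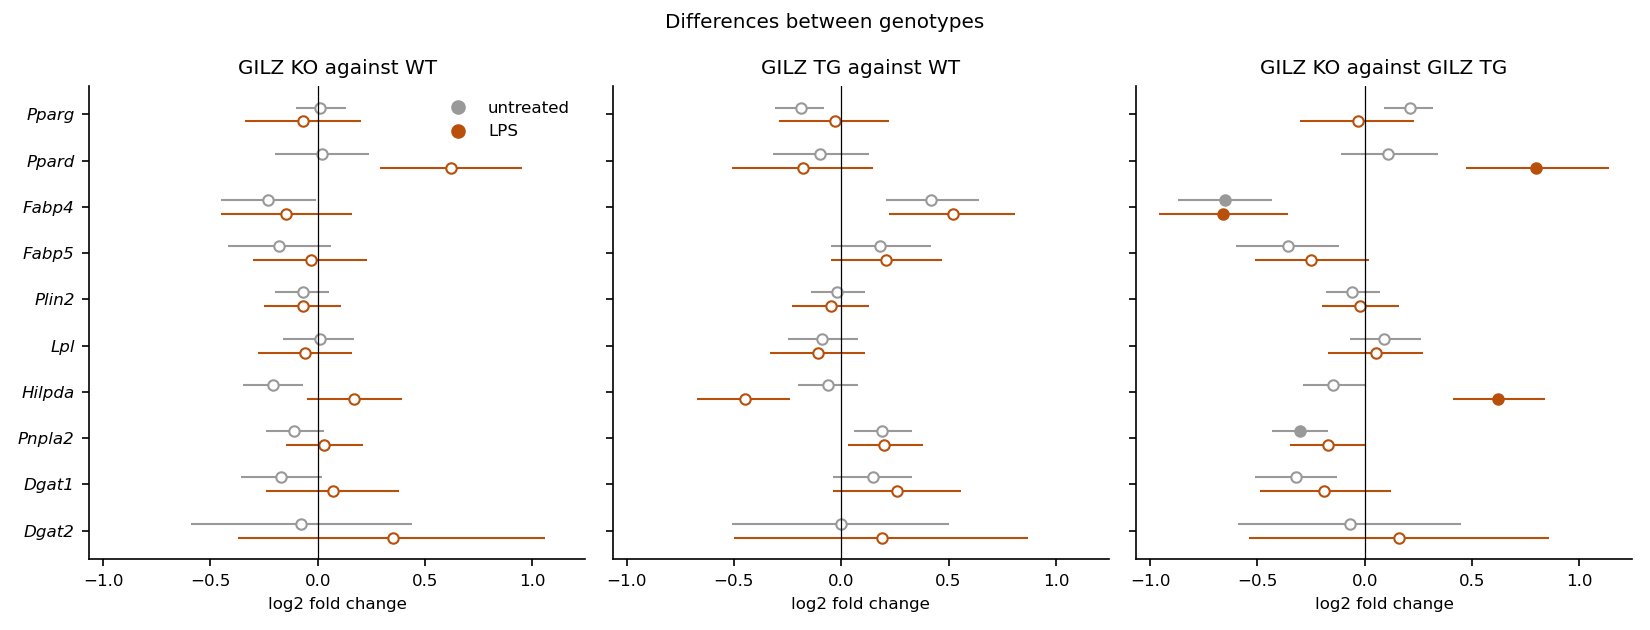
Log2 differences (x axis, edgeR with TMM scaling, 95% confidence intervals) between genotypes for the 10 genes (y axis), without treatment and after LPS, in 1 panel for each pair of genotypes. Filled points had an adjusted p-value under 0.05. These are Fabp4 and Pnpla2 without treatment and Ppard, Fabp4 and Hilpda after LPS, all between GILZ KO and GILZ TG, and directions were the same with library totals.

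After LPS, GILZ KO against WT gave 0 of 10 by edgeR, with 0.0822% of all genes called. It gave 1 by DESeq2 and 0 by limma, and 1 at an unadjusted p under 0.05, beside 1171 of all 12164 genes tested. Ppard was the gene without overlap, beside 16.3% of all genes, at 11.2, 9.41 and 9.78 TPM in GILZ KO and 5.90, 6.71 and 7.57 TPM in WT, a difference of 0.62 (standard error 0.15, adjusted p = 0.241). GILZ TG against WT gave 0 of 10 as well, with 0.46% of all genes called. It gave 2 by DESeq2 and 0 by limma, and 3 at an unadjusted p under 0.05, beside 1852 of all 12164 genes tested. Fabp4 was above WT in each GILZ TG library, by 0.52 (standard error 0.13, adjusted p = 0.122), and Hilpda below, by -0.45 (standard error 0.10, adjusted p = 0.0787), beside 15.2% of all genes without overlap. Without GILZ TG preparations 1 and 2, which leaves only GILZ TG replicate 3, the difference of Fabp4 was 0.78. Without preparation 3, which keeps only the GILZ TG libraries with the higher markers, Hilpda passed (-0.54, adjusted p = 0.00709).

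GILZ KO against GILZ TG gave 3 of 10 after LPS, with 2.6% of all genes called. Ppard was higher in GILZ KO by 0.80 (standard error 0.15, adjusted p = 0.0239 from edgeR), with 11.2, 9.41 and 9.78 TPM against 4.55, 5.43 and 7.94 TPM. Hilpda was higher by 0.62 (standard error 0.10, adjusted p = 0.0137), with 59.9, 68.1 and 70.3 TPM against 41.0, 40.5 and 47.0 TPM. Fabp4 was lower, as without treatment, by -0.66 (standard error 0.14, adjusted p = 0.0333), with 80.6, 95.9 and 82.7 TPM against 132, 116 and 159 TPM. These 3 genes were also those without overlap, beside 20.6% of all genes. Without 1 library the calls held in 1 of 6 fits for Ppard, 2 of 6 for Fabp4 and 3 of 6 for Hilpda, and the differences stayed between 0.66 and 1.00, between -0.79 and -0.52, and between 0.56 and 0.71. Without GILZ TG preparations 1 and 2, which leaves 1 GILZ TG library, Fabp4 was at -0.93, Ppard at 0.44 and Hilpda at 0.45. Without preparation 3 Fabp5 passed as well (-0.37, adjusted p = 0.0333). The GILZ TG replicate left out there, at 117 TPM for Fabp5, lay within the 113 to 137 TPM of GILZ KO. In GILZ TG, replicate 3 had the highest values of Ppard, Hilpda and Fabp4 after LPS.

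Whether the response to LPS differed between genotypes was tested directly. Against WT, GILZ KO differed in 0 of 10 genes by edgeR, with 0.0152% of all genes called, and in 0 by DESeq2 and by limma. At an unadjusted p under 0.05 there were 2, beside 838 of all 13169 genes tested. GILZ TG differed from WT in 0 of 10, with 0.00759% of all genes called, and in 0 by DESeq2 and by limma. Here 1 had an unadjusted p under 0.05, beside 407 of all 13169 genes. Between GILZ KO and GILZ TG 1 of 10 passed, with 0.121% of all genes called. This was Hilpda, whose response was higher in GILZ KO by 0.75 (standard error 0.13, 95% confidence interval 0.49 to 1.02, adjusted p = 0.0238 from edgeR). The value for Hilpda was 0.35 for GILZ KO against WT (adjusted p = 0.675) and -0.40 for GILZ TG against WT (adjusted p = 1.0), so that WT lay between the others. For Ppard the response of GILZ KO exceeded that of GILZ TG by 0.67 (95% confidence interval 0.26 to 1.08, adjusted p = 0.198). With the untreated and LPS libraries of a replicate number as a block it passed (0.67, adjusted p = 0.0418), as it did without both libraries of GILZ TG preparation 3 (0.77, adjusted p = 0.0164). Without preparations 1 and 2 it was 0.48. The fall of Pparg and the rise of Fabp4 differed between GILZ KO and GILZ TG by -0.26 (-0.48 to -0.05, adjusted p = 0.354) and by -0.04 (-0.43 to 0.36, adjusted p = 0.982). The difference in Hilpda passed in 5 of 12 fits without 1 library, with values between 0.68 and 0.85, and was 0.67 without GILZ TG preparations 1 and 2.

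Among the list genes, 0 of 42 differed between GILZ KO and WT without treatment by edgeR, and 0 by DESeq2 and by limma. At an unadjusted p under 0.05 there were 4 (1211 of all 12621 genes). GILZ TG against untreated WT gave 0 by edgeR, 2 by DESeq2 and 0 by limma, with 4 at an unadjusted p under 0.05 (1780 of all 12621 genes). Between untreated GILZ KO and GILZ TG 3 of 42 passed, with 4.94% of all genes called. Fabp3 was higher in GILZ KO by 1.04 (standard error 0.23, adjusted p = 0.035), Acsl1 by 0.34 (standard error 0.08, adjusted p = 0.0437), and the oxidation enzyme Acadm was lower by -0.22 (standard error 0.05, adjusted p = 0.0358, all from edgeR). Without 1 library these calls held in 1 of 6 fits for Fabp3, 0 of 6 for Acsl1 and 1 of 6 for Acadm. Untreated Fabp3 rested on few reads, 26 to 38 per library in GILZ TG and 56 to 65 in GILZ KO. Without GILZ TG preparations 1 and 2 the values were 0.75 for Fabp3, 0.43 for Acsl1 and -0.19 for Acadm. Without preparation 3 Acsl1 was at 0.29 (adjusted p = 0.0624). After LPS, 0 of 41 differed between GILZ KO and WT, with 0 by DESeq2 and by limma. At an unadjusted p under 0.05 there were 3 (1171 of all 12164 genes). For GILZ TG against WT 1 of 41 passed, with 0.46% of all genes called. For GILZ KO against GILZ TG 2 of 41 passed, with 2.6% of all genes called. No list gene passed for a difference between responses.

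Fabp3 moved between genotypes in the direction opposite to Fabp4. Without treatment it was at 5.37, 6.25 and 6.36 TPM in WT, at 6.06, 6.59 and 6.58 TPM in GILZ KO and at 3.37, 2.16 and 3.67 TPM in GILZ TG. These untreated GILZ TG libraries held 26 to 38 reads of Fabp3, so ratios to it are less precise there. After LPS it was at 36.8, 38.9 and 33.4 TPM in WT, at 38.5, 44.7 and 40.1 TPM in GILZ KO and at 19.3, 15.03 and 22.6 TPM in GILZ TG. All GILZ TG libraries lay below all libraries of the other genotypes in the same treatment. After LPS GILZ TG was lower than WT by -0.95 (standard error 0.15, adjusted p = 0.0248 from edgeR), and GILZ KO was higher than GILZ TG by 1.11 (standard error 0.16, adjusted p = 0.00785). The former held in 2 of 6 fits without 1 library and was -0.66 without GILZ TG preparations 1 and 2. The latter held in each of the 6 fits without 1 library and was 0.81 without GILZ TG preparations 1 and 2. The ratio of Fabp4 to Fabp3 within a library, free of any scaling, was 4.46 ± 0.47 in untreated WT, 3.67 ± 0.44 in GILZ KO and 12.4 ± 3.86 in GILZ TG, and after LPS 2.60 ± 0.27, 2.10 ± 0.04 and 7.20 ± 0.44 (SD, n = 3 each). Acsl1 after LPS was at 253, 221 and 246 TPM in WT, at 275, 257 and 261 TPM in GILZ KO and at 205, 181 and 186 TPM in GILZ TG. GILZ KO lay above GILZ TG by 0.45 (standard error 0.08, adjusted p = 0.0146 from edgeR), a call that held in 2 of 6 fits without 1 library. The value was 0.45 without GILZ TG preparations 1 and 2 too.

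**Figure D5:**
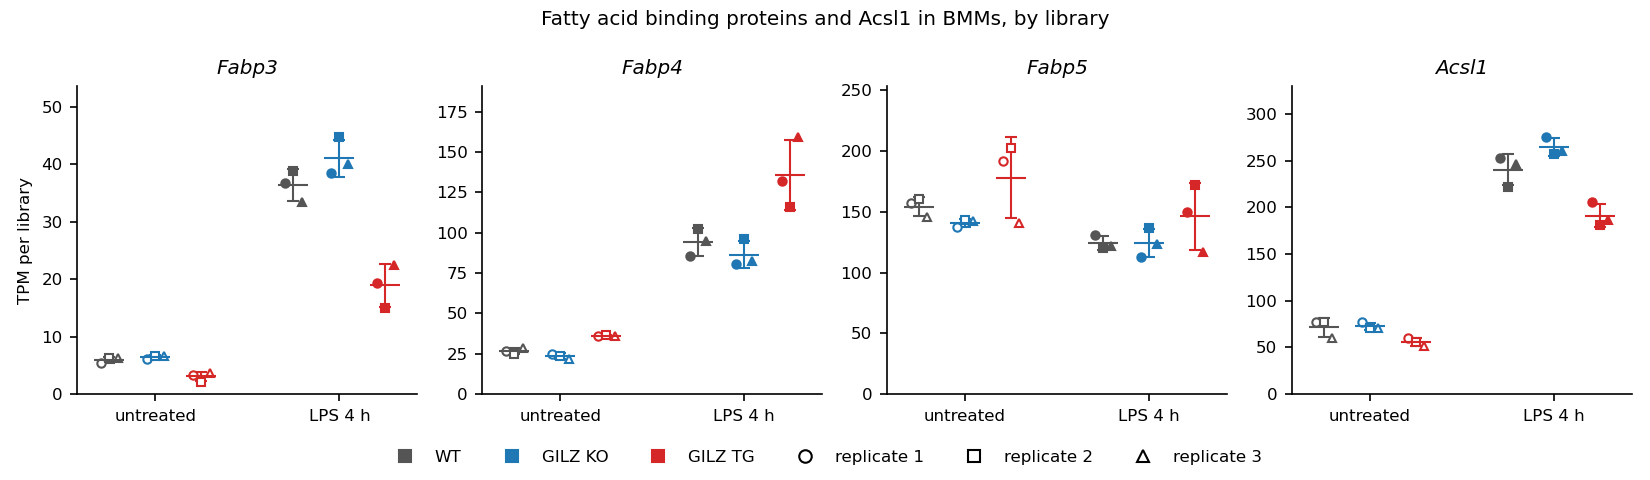
TPM of the carriers Fabp3, Fabp4 and Fabp5 and of Acsl1 (y axis, from 0) in each of the 18 libraries by genotype and treatment, with the mean and SD of 3 replicates. GILZ TG libraries are the lowest for Fabp3 in both treatments and for Acsl1 after LPS, and Fabp4 is higher in GILZ TG than in GILZ KO in all libraries of a treatment.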

How the data were processed

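RNA-seq of 18 libraries (poly(A) selection, directional kit, single reads) was analysed. Per the labels and the study's methods, the authors checked reads with FastQC 0.11.2, mapped them to GRCm38 with the grape-nf pipeline and tested genes with DESeq2 1.40.2. The counting program was not given in the sources used here. The deposited values were expected counts, which need not be whole because shared reads are split, and TPM, both made by the authors for each library. The authors' tables of fold changes and p-values were used only for gene symbols. Gene coordinates are from a GRCm38 annotation.

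Expected counts were rounded and fitted with edgeR 4.0.16 (R 4.3.3, filterByExpr, TMM, quasi-likelihood test, Benjamini-Hochberg adjustment over all genes, threshold 0.05). The procedure was first tested on simulated data in which few genes changed, as many up as down. LPS changed far more genes, so the simulation does not cover the LPS fits. Genotypes were compared in the 9 libraries of a treatment, and LPS effects and their differences in a fit of all 18. Alternatives were DESeq2 1.42.0 and its size factors, limma 3.58.1 on log2(TPM + 1) and log2(TPM + 0.1), no filter and a stricter filter, only the compared libraries, all 18 libraries, a replicate block and leaving out each library. Library totals as the only scaling, and leaving out GILZ TG preparations 1 and 2 or 3, were added after seeing the data.

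The 10 genes and all lists were chosen with earlier results of these data known. Named are all 10, each list gene that passed in a genotype comparison or a difference of responses, and for WT after LPS the 3 largest and 3 smallest fold changes per list among genes that passed and reached 5 TPM in the higher group. For 2 of the list genes the values are not reported here.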

Additional observations from a re-analysis of the deposited data

Results flagged for a closer look

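The response of Hilpda to LPS differed between GILZ KO and GILZ TG by 0.75 on the log2 scale (standard error 0.13, adjusted p = 0.0238 from edgeR), which was picked out because the same contrast gave different effects in 2 genotypes by a test of the difference itself. Hilpda rose after LPS in both genotypes against the typical gene, by 0.97 in GILZ KO and 0.22 in GILZ TG, whereas by the share of reads it was 0.33 in GILZ KO and -0.46 in GILZ TG. The difference itself was 0.79 with library totals (adjusted p = 0.0125). No other of the 10 genes met this criterion. Groups of 3 libraries were not tested for single libraries that stand apart.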

How the results depend on the processing

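For LPS against untreated, Pparg and Fabp4 kept direction and call in every fit. Others reversed. With limma on log2(TPM + 1), on log2(TPM + 0.1) and with library totals, in that order, values in WT were -0.18, -0.20 and -0.23 for Ppard, -0.31, -0.31 and -0.35 for Fabp5, -0.22, -0.22 and -0.27 for Lpl, -0.0015, -0.0015 and -0.06 for Hilpda, and -0.24, -0.25 and -0.30 for Pnpla2. In GILZ KO they were -0.19, -0.19 and -0.19 for Fabp5, -0.33, -0.33 and -0.32 for Lpl, and -0.13, -0.14 and -0.15 for Pnpla2. In GILZ TG they were -0.35, -0.40 and -0.33 for Ppard, -0.28, -0.28 and -0.32 for Fabp5, -0.26, -0.26 and -0.29 for Lpl, -0.40, -0.41 and -0.46 for Hilpda, and -0.22, -0.23 and -0.29 for Pnpla2. These settings all scale by the library total.

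Of the 10 genes, 8 passed for LPS in GILZ TG, but 5 without a filter and 4 with only the compared libraries. For GILZ TG against untreated WT, 2 passed in place of 0 without preparation 3. For untreated GILZ KO against GILZ TG, 4 passed with DESeq2 and 1 with limma at either pseudocount, in place of 2. Counts without preparations 1 and 2, where 1 GILZ TG library is left per treatment, are not given. After LPS, GILZ KO against WT gave 1 in place of 0 with DESeq2, without a filter and with only the compared libraries. GILZ TG against WT gave 2 in place of 0 with DESeq2, without a filter and with all 18 libraries, and 1 without preparation 3. The cause of these shifts was not tested.

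Without 1 library, counts were 5 to 8 for LPS in WT, 7 to 8 in GILZ KO and 5 to 8 in GILZ TG. They were 0 to 0, 0 to 2 and 0 to 3 without treatment for GILZ KO against WT, GILZ TG against WT and GILZ KO against GILZ TG, 0 to 0, 0 to 1 and 0 to 4 after LPS, and 0 to 0, 0 to 0 and 0 to 2 for the responses. The difference of responses of GILZ KO and GILZ TG gave 0 in place of 1 with only the compared libraries, and 2 without preparation 3.

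Same-numbered libraries of other genotypes deviated together (correlation over 0.1) in 2 of 18 pairs. Same-numbered untreated and LPS libraries did so in all 3 pairs of GILZ TG (0.269, 0.395 and 0.602), and in 4 of 9 pairs over all genotypes. Libraries with unlike numbers were not compared, so whether the numbers pair the samples was not settled. A replicate block across genotypes moved no count by over 1.5 times, and a replicate block of untreated and LPS libraries gave 2 in place of 1 for the responses of GILZ KO and GILZ TG, where Ppard joined Hilpda. For LPS in GILZ TG the block gave 8, as without it. Among recomputed fold changes of the 10 genes, 72 lost and 46 gained a call, and 39 called ones reversed. Of 1705 that had not passed, 126 took the other sign. Among the 10 genes, depth limits Dgat2 most.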

Other observations

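Some values were not given above. Plin2 stood far above Plin3, another droplet coat protein, with a ratio within a library of 38.5 ± 1.23 in untreated WT and 43.7 ± 1.98 after LPS (SD, n = 3 each). Fabp4 per Pparg transcript was 0.62 ± 0.05 in untreated GILZ KO and 17.8 ± 1.62 after LPS, and 27.9 ± 5.92 in GILZ TG after LPS (SD, n = 3 each). Angptl4, a PPAR target that inhibits lipoprotein lipase, was chosen after its values were seen, and was at 4.65 TPM in untreated WT and 0.697 TPM after LPS. It passed the test for LPS in WT against the typical gene, and is among the 2 other PPAR target genes counted above as lower.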
